A study of Mus musculus with 12 samples.

Results

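The endothelial identity genes described here are 32 genes by which the lining cells of blood vessels are usually recognised. They were taken by symbol from a given list, and all 32 were found among the 55291 symbols counted in each library. Expression was measured by sequencing of 12 mouse RNA libraries in 4 groups of 3, and all 32 genes were among the 18147 with enough counts to test. Per the labels, the RNA came from VE-cadherin-positive endothelial cells of VECadCre-tdTomato mice, a line in which, by its name, Cre recombinase is driven by the VE-cadherin promoter. The marrow AML and lung AML libraries came from the bone marrow and the lung of such mice that had been given acute myeloid leukaemia (AML) cells of the genotype Trp53(R172H/delta), in which 1 copy of the tumour suppressor gene Trp53 is mutated and the other deleted. The marrow control and lung control libraries came from mice of the same line that received no transplant, so leukaemia and transplantation itself cannot be told apart. Whether the Cre is inducible, the age and sex of the mice, the time after transplantation and any pooling of mice are not stated by the labels. Nothing in the labels says that each library is a different mouse, and the p-values then measure only how far these libraries spread, which may be technical.

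An endothelial cell is held to its neighbours by VE-cadherin at adherens junctions and by claudin-5 at tight junctions, and its identity is maintained by ETS factors such as Erg and Fli1 and by the SoxF factors Sox7, Sox17 and Sox18. Receptors for lipids, angiogenic peptides and flow-borne factors sit on its surface, and the cell secretes proteins such as endocan and Egfl7 into the vessel wall. Marrow sinusoids form a niche for blood stem cells, and lung capillaries carry out gas exchange. Several of the genes are known from blood cells as well, since platelets, stem cells and myeloid cells use part of the same set. As classed here, that holds for 10 of the 32 (Pecam1, Esam, Icam2, Erg, Fli1, Emcn, Eng, Cd93, S1pr1 and Bmx). The other 22 were not so classed, which does not make them exclusive to endothelium, as Adgrf5 below shows. A VE-cadherin-driven Cre that is active before birth is known to mark blood cells too, because the first blood stem cells arise from endothelium.

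Library depth lay between 12.8 and 39.2 M counts, and levels are given as CPM, counts per 1 M counts after scaling with TMM factors. Summed over the 32 genes, the level was 979.8, 1118 and 855 CPM in the marrow AML libraries, against 399, 548 and 501 CPM in the marrow controls. It was 990.1, 2539.8 and 1707 CPM in the lung AML libraries, against 5583, 17639 and 7531 CPM in the lung controls. The lung controls stood above all other libraries, and the marrow controls below them. As a share of all counts it took 0.0988% to 0.139% in marrow AML, 0.0394% to 0.051% in marrow controls, 0.0915% to 0.22% in lung AML and 0.532% to 1.69% in lung controls. The marrow AML sum leaned on few genes. Esm1, Icam2 and Tmem100 took on average 34.3%, 12.5% and 12.2% of it, against 13.7%, 1.93% and 2.76% in marrow controls. The fitted log2 fold change of AML over control in the marrow was below 0 for 20 of the 32 genes, with a median of -1.52. In RNA from a mixture, fewer cells of a type and less RNA per cell cannot be told apart.

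**Figure D1:**
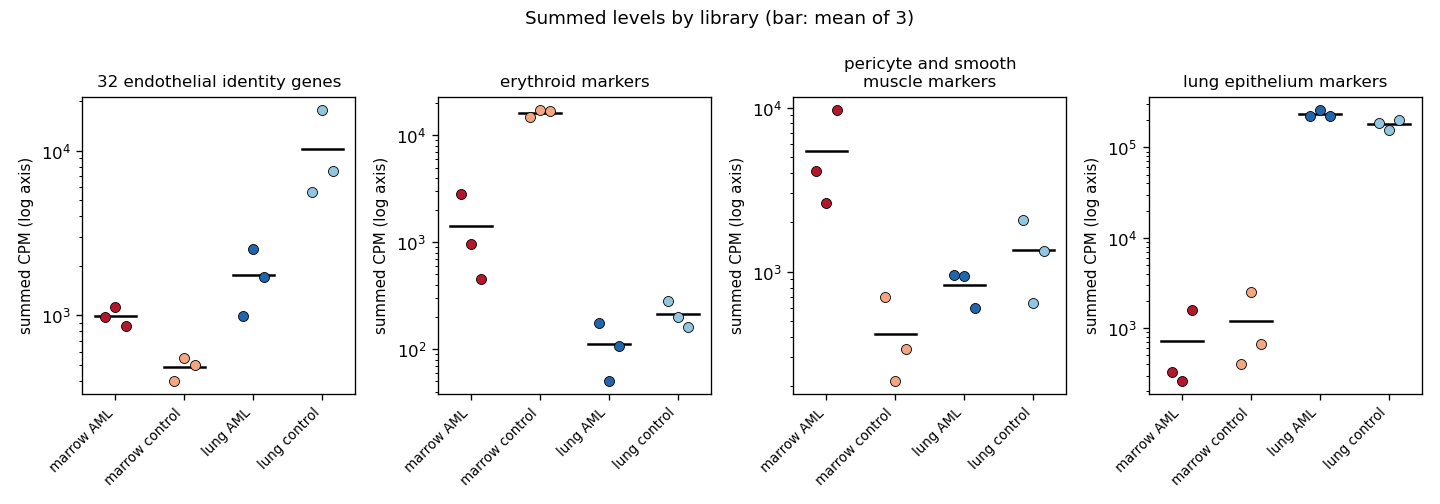
Summed CPM (log axis) of the 32 endothelial identity genes and of 3 marker lists of other cells in each of the 12 libraries, as points, with the group mean as a bar. The endothelial sum is 855 to 1118 CPM in marrow AML and 399 to 548 CPM in marrow controls, and 990.1 to 2539.8 CPM in lung AML and 5583 to 17639 CPM in lung controls; the erythroid sum is low and the pericyte sum high in marrow AML.

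Defining markers of other cells were abundant beside these small shares, in libraries labelled as endothelial. The 12 lung epithelium markers summed to 219603 to 257867 CPM in lung AML and 156991 to 198978 CPM in lung controls. Between the marrow groups, 20.4% of all tested genes rose and 23.5% fell with AML at an adjusted p under 0.05, the shares to set beside the counts that follow. The 12 erythroid markers summed to 456 to 2822 CPM in marrow AML and 14899.8 to 17220.1 CPM in marrow controls, and 11 of 12 fell in marrow AML. The 12 pericyte and smooth muscle markers summed to 2604 to 9644 CPM in marrow AML and 216 to 702 CPM in marrow controls, and 10 of 12 rose. Of 12 leukocyte markers, 9 rose and 1 fell in marrow AML, with sums of 205 to 242 CPM in AML and 132 to 168 CPM in controls. Of 10 stem and progenitor markers, 6 rose and 1 fell there, with sums of 187 to 259 CPM in AML and 55.8 to 109 CPM in controls. The 12 marrow stroma and bone-lineage markers summed to 12417 to 22055 CPM in marrow AML and 15678 to 21384 CPM in marrow controls, with 3 higher and 4 lower. Of 12 platelet and megakaryocyte markers 11 were tested, and 3 rose and 1 fell. The 12 summed to 27.4 to 63.3 CPM in marrow AML and 63.9 to 84.0 CPM in marrow controls, and Gp1bb was at 0 in both. Of 10 neutrophil markers 9 were tested, and 1 fell. The 10 summed to 5.18 to 54.7 CPM in marrow AML and 13.1 to 165 CPM in marrow controls, and Ly6g was at 0 in both. The part of these cells in the results below was not tested.

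Within the set, levels were uneven, and the order of genes differed between groups. Per kilobase of exon, the highest member in marrow AML was Esm1 (endocan, a secreted proteoglycan) at 162 ± 28.2 CPM per kb (SD, n = 3), ahead of Tmem100 at 66.9 ± 2.09 and Icam2 at 64.9 ± 12.6 CPM per kb, and the last 2 did not differ beyond their spread. In marrow controls Plvap, the protein of vessel pore diaphragms, stood highest at 48.0 ± 13.6 CPM per kb, then Esm1 at 30.3 ± 6.43 and Eng at 12 ± 3.4 CPM per kb. In lung AML the order was Adgrf5 (76.4 ± 19.0 CPM per kb), Plvap (62.4 ± 49.4) and Esam (60.4 ± 16.4), with spreads that overlap. In lung controls it was Plvap (1123 ± 784 CPM per kb), Tmem100 (405 ± 206) and Cldn5 (342 ± 255), again with wide spreads. A mean of at least 10 CPM was reached by 11 members in marrow AML, 13 in marrow controls, 22 in lung AML and 31 in lung controls. In marrow AML 9 members, Cdh5 among them, averaged under 1 CPM, and their values rest on few counts.

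**Figure D2:**
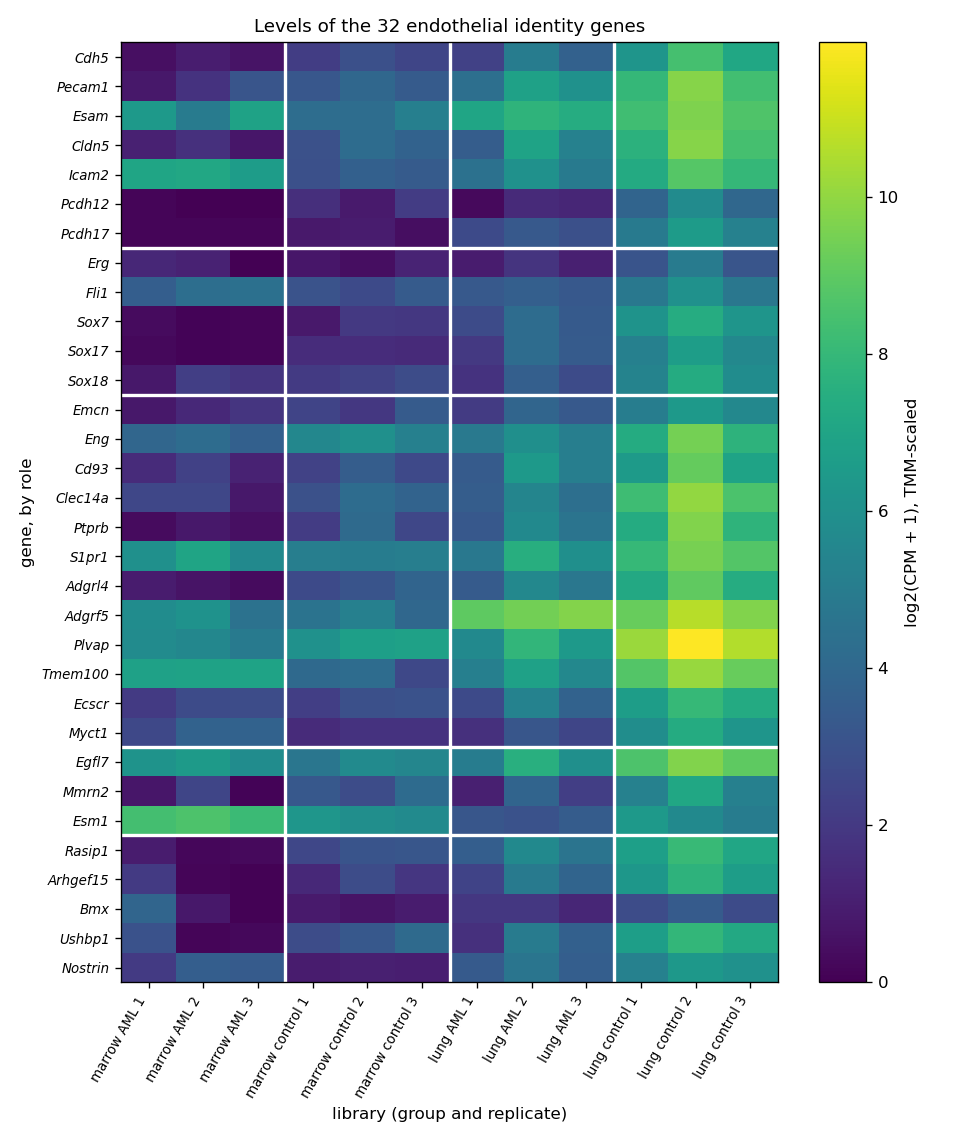
Level of each of the 32 genes (rows, grouped by role) in each of the 12 libraries (columns, grouped), as log2(CPM + 1). The lung controls hold the brightest block (bright colours are high levels), with lung control 2 the highest of its group for 31 of 32 genes, and in marrow AML a few genes such as Esm1, Icam2 and Tmem100 stand out from rows near 0.

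The lung libraries of a group differed in the whole set at once. Lung control 2 was the highest of its group for 31 of the 32 genes, all but Esm1, and lung AML 2 for 30 of 32. Lung AML 1 was the lowest of its group for 29 of 32, and lung control 1 for 28 of 32. In marrow AML no library stood apart in this way, as libraries 1, 2 and 3 were highest for 12, 13 and 7 genes. The summed level of lung controls was 10251 ± 6472 CPM (SD, n = 3), and 6557 CPM as a mean without lung control 2.

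Upstream sequences of 6 genes are shown to set those that fell with AML in both tissues beside others that rose in marrow AML, as described below. They are the 250 bases before the transcription start in RefSeq (GRCm38.p6). The set of RefSeq promoters at hand held 20 promoters of 15 of the 32 genes, and the other genes were not searched. The letters searched, on both strands, were AGGAAG or its reverse complement CTTCCT, a form of the site that ETS factors such as Erg and Fli1 bind. Capitals mark each match. Fell in both tissues:
Eng (chr2:32646345-32646594, plus strand): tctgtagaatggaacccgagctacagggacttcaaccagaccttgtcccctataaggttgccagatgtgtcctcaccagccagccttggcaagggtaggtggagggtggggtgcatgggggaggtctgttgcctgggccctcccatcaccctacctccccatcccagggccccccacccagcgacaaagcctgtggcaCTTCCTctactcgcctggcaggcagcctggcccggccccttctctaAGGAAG
Adgrl4 (chr3:151437632-151437881, plus strand): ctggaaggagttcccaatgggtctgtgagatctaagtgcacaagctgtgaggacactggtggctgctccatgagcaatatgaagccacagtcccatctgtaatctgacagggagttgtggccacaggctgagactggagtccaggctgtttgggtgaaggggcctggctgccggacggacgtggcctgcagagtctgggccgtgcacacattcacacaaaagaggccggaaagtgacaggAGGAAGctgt
Pcdh17 (chr14:84443313-84443562, plus strand): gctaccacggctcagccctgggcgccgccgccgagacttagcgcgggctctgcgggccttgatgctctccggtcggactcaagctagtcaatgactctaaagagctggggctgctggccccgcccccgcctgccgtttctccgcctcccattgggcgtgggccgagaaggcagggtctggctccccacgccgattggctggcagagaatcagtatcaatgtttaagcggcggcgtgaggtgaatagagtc
Rose in marrow AML:
Nostrin (chr2:69135550-69135799, plus strand): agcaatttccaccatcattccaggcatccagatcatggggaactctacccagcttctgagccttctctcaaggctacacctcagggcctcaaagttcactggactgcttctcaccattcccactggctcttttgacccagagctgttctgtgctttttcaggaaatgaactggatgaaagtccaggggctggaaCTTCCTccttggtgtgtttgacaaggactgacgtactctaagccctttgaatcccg
Myct1 (chr10:5593478-5593727, plus strand): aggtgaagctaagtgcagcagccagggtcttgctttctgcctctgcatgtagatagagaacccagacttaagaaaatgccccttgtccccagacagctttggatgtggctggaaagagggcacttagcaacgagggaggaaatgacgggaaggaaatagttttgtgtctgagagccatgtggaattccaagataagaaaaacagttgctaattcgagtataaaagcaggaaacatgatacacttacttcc
Esm1 (chr13:113209409-113209658, plus strand): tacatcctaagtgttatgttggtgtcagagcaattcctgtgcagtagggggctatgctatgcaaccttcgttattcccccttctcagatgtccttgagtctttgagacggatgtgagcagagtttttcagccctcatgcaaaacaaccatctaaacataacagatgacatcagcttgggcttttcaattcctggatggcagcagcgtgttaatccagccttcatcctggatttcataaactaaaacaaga
Both kinds held promoters with and without a match. Eng had 2 matches and Adgrl4 and Nostrin 1 each, and Pcdh17, Myct1 and Esm1 had none in this window. Rasip1, which also fell in both tissues and is not printed, had 1 match. Over the set, 10 of 20 promoters, from 9 of 15 genes, held the letters, against 29.5% of 32851 mouse promoters of the same length. Of 2 forms of the site of Sox factors, ACAAAG (reverse complement CTTTGT) was found in 4 of 20 and in 16.5% of all, and ACAATG (reverse complement CATTGT) in 1 of 20 and in 10.7% of all. A match is a description of these letters, and no binding was measured.

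The endothelial identity genes were lower in lung AML libraries than in lung controls, nearly without exception. By the edgeR quasi-likelihood test, 19 of 32 fell and 0 rose at an adjusted p under 0.05, where 1.16% of all tested genes fell and 1.17% rose. The fitted log2 fold change was below 0 for all 32 and had a median of -3.09, against 0.00 over all genes tested. For 31 of 32 genes every AML library lay below every control, against 16.8% of all genes, and the exception was Adgrf5. At an unadjusted p under 0.05 there were 30 of the 32 genes, where 2995 of all 18147 tested genes passed. The number of members called at an adjusted p under 0.05 depended on single libraries. Without lung AML 3 it was 2 (Myct1 and Esm1), without lung AML 1 it was 3 (also Plvap) and without lung control 2 it was 6 (Icam2, Eng, Plvap, Tmem100, Myct1 and Esm1). Fits without 1 marrow control passed 13 to 16. The calls of Pcdh12, Sox17, Egfl7 and Rasip1 were also lost without any 1 of the lung controls, those of Cdh5 and Ecscr without lung control 3, and those of Fli1 and Pcdh12 without lung AML 2. Genes that gained a call were Cldn5 and S1pr1 without lung AML 2, Pecam1, Erg and Emcn without marrow AML 3, Arhgef15 and Ushbp1 without marrow AML 1, and Nostrin without marrow AML 1 or 3. Other tools passed more, 28 by DESeq2 and 30 by limma-voom, where 8.85% and 12.6% of all genes passed in either direction.

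Markers of other cells gave few calls between the lung groups, and several lists moved. The leukocyte sum was 475 to 608 CPM in lung AML and 564 to 749 CPM in lung controls, and the pericyte sum 597 to 955 CPM in lung AML and 646 to 2066 CPM in lung controls, with 0 of 12 called in each. The neutrophil sum was 518 to 693 CPM in lung AML and 307 to 468 CPM in lung controls, again with 0 called, of 9 tested. Of 12 erythroid markers 3 rose and 9 had an unadjusted p under 0.05 in either direction (log2 fold changes between -4.03 and 5.04), with sums of 50.6 to 175 CPM in lung AML and 160.2 to 282 CPM in lung controls. Of all 18147 tested genes, 2995 had an unadjusted p under 0.05. The 7 lymphatic vessel markers, another kind of endothelium, summed to 26.6 to 145 CPM in lung AML and 168 to 928 CPM in lung controls, with 0 called and 3 at an unadjusted p under 0.05. Their median log2 fold change, -2.81, was close to the -3.09 of the set. Stem and progenitor markers, several of which endothelium also makes, summed to 404 to 706 CPM in lung AML and 998 to 2286 CPM in lung controls, with 1 of 10 lower. Their part in the fall of the set was not tested.

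Among the 7 junction and adhesion genes, 4 fell in the lung and 3 did not pass. Cdh5 (VE-cadherin itself; chromosome 8, 104101625 to 104144511, GRCm38) had 3.9, 31.8 and 12.1 CPM in lung AML, against 75.4, 348 and 140.3 CPM in lung controls. The highest AML library lay well below the lowest control, and the gene fell (log2 fold change -3.56 ± 0.74, adjusted p = 0.0325), a call lost without lung AML 1, lung AML 3, lung control 2, lung control 3 or marrow control 3. Icam2, a ligand of leukocyte integrins, had 21, 66.6 and 28.9 CPM in lung AML, against 157, 452 and 247 CPM in lung controls (log2 fold change -2.88 ± 0.48, adjusted p = 0.0148). Pcdh17, a protocadherin, had 5.53, 9.2 and 6.53 CPM in lung AML, against 29.4, 95 and 37.4 CPM in lung controls, and here too the groups were far apart (log2 fold change -2.93 ± 0.47, adjusted p = 0.0118). Pcdh12, a protocadherin of endothelial junctions, fell too (log2 fold change -4.62 ± 1.0, adjusted p = 0.0388). Pecam1, or CD31, an adhesion molecule of endothelium, platelets and leukocytes (chromosome 11, 106654217 to 106750628), had 19.9, 115 and 66.1 CPM in lung AML, against 249.9, 889.7 and 326 CPM in lung controls. Its groups did not overlap, yet it did not pass (log2 fold change -2.87 ± 0.80, adjusted p = 0.0919). Cldn5, the claudin of endothelial tight junctions (log2 fold change -3.10 ± 0.83, adjusted p = 0.0809), and Esam, an adhesion molecule also found on platelets (-1.56 ± 0.49, adjusted p = 0.128), did not pass either.

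All 3 SoxF factors and Fli1 fell among the 5 transcription factors. Sox7, Sox17 and Sox18 had log2 fold changes of -3.24 ± 0.59, -2.62 ± 0.58 and -3.77 ± 0.74 (adjusted p = 0.0207, 0.0412 and 0.0273). Fli1 had the smallest called fold of the set, with 9.23, 11.3 and 8.91 CPM in lung AML, against 26.5, 65.7 and 25.7 CPM in lung controls (log2 fold change -2.0 ± 0.41, adjusted p = 0.0325). Erg (chromosome 16, 95359169 to 95586593) was the lowest of the 5, with 0.856, 2.44 and 1.08 CPM in lung AML, against 7.74, 30.2 and 7.96 CPM in lung controls. Every AML library lay below every control, and the gene did not pass (log2 fold change -3.39 ± 1.14, adjusted p = 0.155).

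Of the 12 surface receptors and glycoproteins, 8 fell in the lung. Plvap had 51.1, 235 and 85.2 CPM in lung AML, against 1142, 4015 and 1535 CPM in lung controls, the highest levels of any member (log2 fold change -4.17 ± 0.65, adjusted p = 0.0112). Clec14a, a lectin-like protein of sprouting vessels, had 10.6, 42.4 and 19.6 CPM in lung AML, against 309, 1044 and 380.2 CPM in lung controls (log2 fold change -4.58 ± 0.80, adjusted p = 0.017). These were among the deepest falls of the set. Myct1, a membrane protein of vessels, had 2.13, 8.22 and 4.62 CPM in lung AML, against 58.2, 166 and 74.4 CPM in lung controls (log2 fold change -4.32 ± 0.59, adjusted p = 0.00558). Tmem100, which is induced by BMP9 through the receptor ALK1, had 34.5, 114 and 47.4 CPM in lung AML, against 441, 1128 and 579 CPM in lung controls (log2 fold change -3.46 ± 0.57, adjusted p = 0.0138). Eng, or endoglin, a co-receptor of the TGF-beta family, had 27.4, 61.6 and 33.5 CPM in lung AML, against 165, 709 and 216 CPM in lung controls (log2 fold change -3.16 ± 0.54, adjusted p = 0.0153). For all 3 every AML library lay below every control, and Myct1 kept its call in all 21 alternatives. The phosphatase Ptprb, which acts on VE-cadherin and Tie2, the adhesion receptor Adgrl4 and the surface protein Ecscr also fell (log2 fold changes -3.90 ± 0.85, -3.34 ± 0.66 and -3.19 ± 0.64). The 4 that did not pass were Emcn, a sialomucin of veins and capillaries (log2 fold change -2.67 ± 0.66, adjusted p = 0.0621), Cd93, a lectin-like receptor (-2.58 ± 0.86, 0.152), S1pr1, the receptor of sphingosine-1-phosphate (-2.42 ± 0.63, 0.0732), and Adgrf5.

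Adgrf5 was the one gene of the set whose lung groups overlapped. It is an adhesion receptor that in the mouse lung is made by alveolar type 2 cells too, where it limits surfactant. It had 518, 687 and 860 CPM in lung AML, against 588, 1643 and 842 CPM in lung controls (log2 fold change -0.57 ± 0.48, adjusted p = 0.665). Within the set it took 43.2% ± 14.1 of the summed CPM in lung AML and 10.3% ± 0.949 in lung controls (SD, n = 3), and Plvap 6.47% ± 2.43 in lung AML and 21.2% ± 1.35 in lung controls. Of the 12 lung epithelium markers, 0 were called between the lung groups by edgeR. An unadjusted p under 0.05 was found for 2 of them, and for 2995 of all 18147 tested genes.

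Among the secreted proteins, Esm1 and Egfl7 fell in the lung. Esm1 had 8.23, 7.1 and 10.3 CPM in lung AML, against 88.3, 50.8 and 32 CPM in lung controls, and it had the smallest p of the set (log2 fold change -2.74 ± 0.34, adjusted p = 0.00366), with a call kept in all 21 alternatives. Egfl7, a protein of the vessel wall whose gene hosts the microRNA miR-126, fell as well (log2 fold change -2.62 ± 0.58, adjusted p = 0.0416). Mmrn2, a matrix ligand of Cd93 and Clec14a, did not pass (log2 fold change -3.55 ± 1.19, adjusted p = 0.153). Of the 5 intracellular proteins, Rasip1, which is needed for vessels to form a lumen, fell (log2 fold change -2.57 ± 0.59, adjusted p = 0.0476). The exchange factor Arhgef15, the kinase Bmx, Ushbp1 and Nostrin, which moves endothelial nitric oxide synthase, did not pass (adjusted p = 0.159, 0.639, 0.17 and 0.0594). Of the 10 genes also known from blood cells 3 fell, and of the 22 others 16, where 1.16% of all tested genes fell. Every AML library lay below every control for all 10 and for 21 of the 22, against 16.8% of all genes. Median log2 fold changes were -2.63 for the 10 and -3.29 for the 22, and a difference between them was not tested. Counting ignored the strand, so reads of overlapping genes cannot be told apart. Exons of Eng overlap Fpgs, with up to 1485 counts in a library, those of Egfl7 overlap Agpat2, with up to 2855, those of Rasip1 overlap Izumo1 and 2 noncoding genes, and those of Sox17 and Ecscr each overlap 1 little-counted gene.

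To see whether the set fell evenly, each gene was divided by Cdh5 in the same lung library, a measure chosen after the values were seen. For 12 of the 31 other genes the ratio was higher in every lung AML library than in every lung control, for 0 it was lower in every one, and for 19 the groups overlapped. Among all 18146 other genes tested, 84.9% had a higher ratio in every lung AML library and 0.0937% a lower one. Cdh5 itself had a deeper log2 fold change (-3.56) than the median of the set (-3.09), so the choice of this reference leans the ratios upward. Some members had deeper log2 fold changes than Cdh5, such as Pcdh12 (-4.62) and Clec14a (-4.58). The widest gap was that of Adgrf5, at 133, 21.6 and 71.3 times the Cdh5 level in lung AML, against 7.8, 4.71 and 6.0 times in lung controls. Esam followed, at 33.1, 7.0 and 13.9 times in lung AML, against 4.19, 2.32 and 2.93 times in lung controls. For Plvap the ranges met, with 13.1, 7.4 and 7.06 times in lung AML, against 15.1, 11.5 and 10.9 times in lung controls. Those of Clec14a barely met, with 2.72, 1.33 and 1.62 times in lung AML, against 4.09, 3.0 and 2.71 times in lung controls. The others with a higher ratio were Pecam1, Icam2, Fli1, Sox17, Emcn, Cd93, S1pr1, Rasip1, Bmx and Nostrin.

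**Figure D3:**
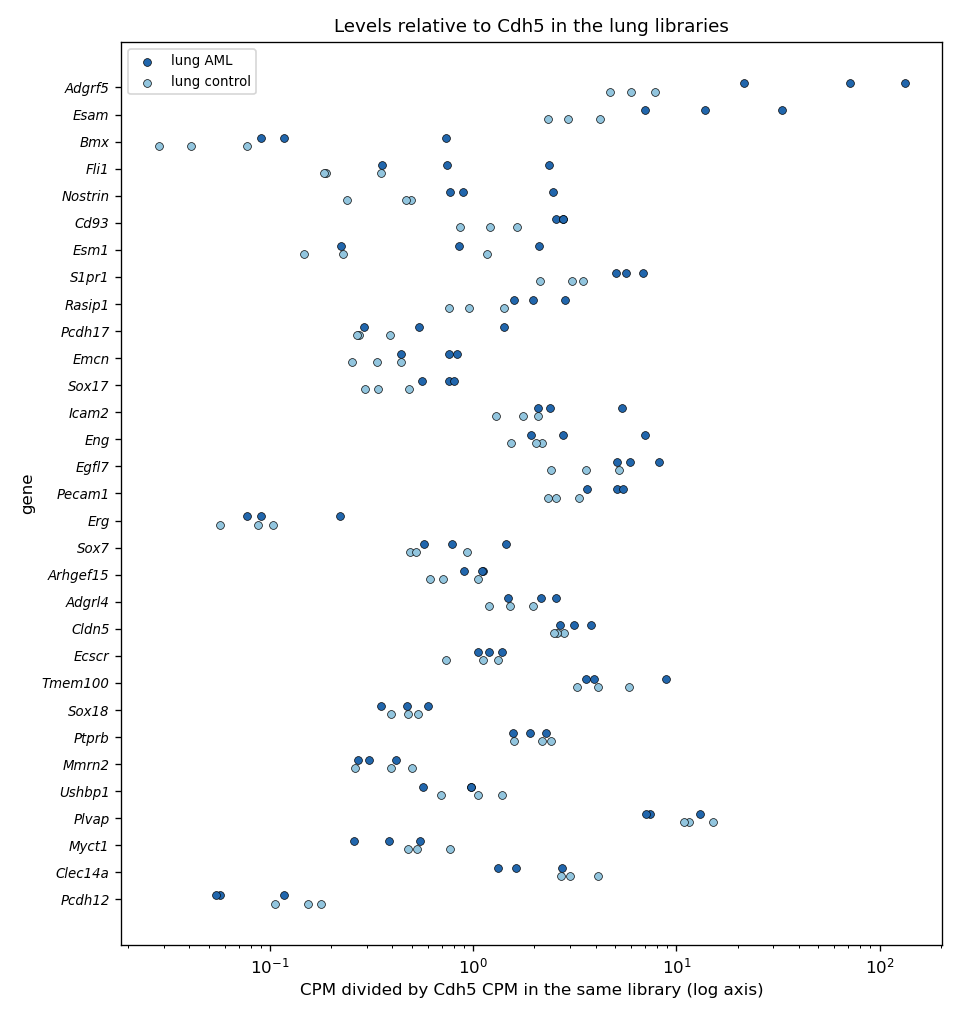
CPM of each of 31 genes divided by the Cdh5 CPM of the same library (log axis) in the 3 lung AML and the 3 lung control libraries, ordered by the gap between the groups. Adgrf5 lies at 21.6 to 133 times Cdh5 in lung AML and 4.71 to 7.8 times in lung controls, and for 19 of 31 genes the points of both groups overlap.

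In the marrow the set split, with 7 genes higher, 10 lower and 15 not called in AML. Many genes moved in this comparison, as 20.4% of all tested genes rose and 23.5% fell, so the rises and the falls of the set are both near the background. The median log2 fold change of the 32 genes was -1.52, against -0.11 over all genes. Every AML library lay above every control for 8 genes and below for 16, against 20.4% and 27.5% of all genes. With library totals in place of TMM the median of all genes was 0.16 and 8 members rose and 10 fell. By limma-voom with quality weights 3 members rose (Icam2, Tmem100 and Esm1) and 0 fell, where 35.0% of all genes passed in either direction. By DESeq2 19 members passed, 7 higher and 12 lower, where 49.4% of all genes passed, so the calls of falls depend on the tool. At an unadjusted p under 0.05 by edgeR there were 19 of 32 members, where 9387 of all 18147 tested genes passed.

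Esm1, Icam2 and Tmem100 were the clearest rises. Esm1 had 331, 401 and 284 CPM in marrow AML, against 78.5, 60.1 and 52.2 CPM in marrow controls (log2 fold change 2.41 ± 0.33, adjusted p = 0.000256). It made up 34.3% ± 1.41 of the summed CPM of the set in marrow AML and 13.7% ± 5.18 in marrow controls (SD, n = 3). Icam2 had 131, 143 and 96.7 CPM in marrow AML, against 6.52, 11.8 and 10 CPM in marrow controls (log2 fold change 3.71 ± 0.51, adjusted p = 0.000234). Tmem100 had 114, 119 and 122 CPM in marrow AML, against 16, 18 and 5.03 CPM in marrow controls (log2 fold change 3.18 ± 0.57, adjusted p = 0.00107). For these 3 the lowest AML library was several times the highest control, and the calls held in all 21 alternatives.

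The other 4 rises were smaller in level. Nostrin had 3.11, 11 and 9.88 CPM in marrow AML, against 0.884, 1.06 and 1.02 CPM in marrow controls (log2 fold change 3.02 ± 0.55, adjusted p = 0.00123). Myct1 had 5.05, 12.5 and 12.6 CPM in marrow AML, against 1.77, 2.41 and 2.4 CPM in marrow controls (log2 fold change 2.20 ± 0.56, adjusted p = 0.00816). In both, AML library 1 was the lowest of its group and still above all controls. Fli1 had 10.8, 19 and 20.7 CPM in marrow AML, against 7.31, 5.53 and 9.82 CPM in marrow controls (log2 fold change 1.16 ± 0.41, adjusted p = 0.0381), and its call was lost without any 1 of marrow AML 2, marrow AML 3, marrow control 1, marrow control 2, lung AML 1 or lung AML 3. Esam had 86.1, 30.5 and 119 CPM in marrow AML, against 18.7, 18.7 and 34.7 CPM in marrow controls (log2 fold change 1.71 ± 0.50, adjusted p = 0.0165). Its groups overlapped, and the call was lost without marrow AML 3, marrow control 1 or marrow control 2. Of these 7 rising genes, Icam2, Fli1 and Esam are among those also known from blood cells, and the leukocyte and pericyte markers that rose in the same libraries are given above.

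Of the 7 junction genes, 4 fell in the marrow and 2 rose. Cdh5 had 0.388, 0.955 and 0.558 CPM in marrow AML, against 3.54, 6.53 and 4.67 CPM in marrow controls, and it fell (log2 fold change -2.90 ± 0.82, adjusted p = 0.0141). The 6, 25 and 16 counts behind the AML values leave wide counting error, and intervals and floors here cover counting error only. Pcdh12 had 2 counts over the 3 AML libraries and 118 over the controls, a ratio of 0.014 with a 95% counting interval of 0.00168 to 0.0517 (adjusted p = 0.0039). In marrow AML 2 and 3 it was at 0, which allows up to 0.115 and 0.105 CPM. Pcdh17 had 8 counts over the AML libraries and 41 over the controls (log2 fold change -2.54 ± 0.63, adjusted p = 0.00701). Cldn5 had 1.17, 2.18 and 0.628 CPM in marrow AML, against 6.93, 17.7 and 12.6 CPM in marrow controls (log2 fold change -3.22 ± 0.90, adjusted p = 0.0134). Pecam1 had 0.712, 2.41 and 7.85 CPM in marrow AML, against 8.42, 14.8 and 9.7 CPM in marrow controls. All AML libraries lay below all controls but spread widely, and the gene did not pass (log2 fold change -1.55 ± 0.80, adjusted p = 0.139), and it passed when marrow AML 3 was left out (adjusted p = 0.0246, log2 fold change -2.74).

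The SoxF factors Sox7 and Sox17 were close to the limit of detection in marrow AML. Sox7 had 0.259, 0.0764 and 0.105 CPM there, against 0.745, 3.01 and 2.88 CPM in marrow controls (log2 fold change -4.01 ± 0.80, adjusted p = 0.0021), or 9 counts over the AML libraries and 124 over the controls. Sox17 had 0.194, 0.0764 and 0.105 CPM in marrow AML, against 1.91, 1.91 and 1.68 CPM in marrow controls (log2 fold change -3.92 ± 0.77, adjusted p = 0.00192), from 8 and 107 counts. Both were lower in every AML library. Sox18 was not called (log2 fold change -0.90 ± 0.70, adjusted p = 0.325). Erg was low in both groups, with 1.49, 1.22 and 0 CPM in marrow AML, against 0.652, 0.352 and 1.26 CPM in marrow controls. The groups overlapped (log2 fold change 0.24 ± 1.1, adjusted p = 0.887), and the 0 in marrow AML 3 allows up to 0.105 CPM. Fli1 and Erg, both ETS factors, thus gave a called rise and no call, and the difference between them was not tested.

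Of the surface proteins, 3 of 12 fell in the marrow. Adgrl4 had 0.906, 0.535 and 0.279 CPM in marrow AML, against 5.54, 7.69 and 13.7 CPM in marrow controls (log2 fold change -4.04 ± 0.78, adjusted p = 0.00171). Ptprb had 0.259, 0.726 and 0.419 CPM in marrow AML, against 3.4, 16.5 and 4.79 CPM in marrow controls (log2 fold change -4.07 ± 0.97, adjusted p = 0.00594). Both were several times lower in each AML library than in the lowest control. Eng fell less, with 14.5, 17.6 and 11.8 CPM in marrow AML, against 45.1, 63.6 and 36.7 CPM in marrow controls (log2 fold change -1.73 ± 0.51, adjusted p = 0.0182), and its call was lost without marrow AML 3 or marrow control 2. Rasip1 had 0.906, 0.153 and 0.244 CPM in marrow AML, against 4.93, 7.54 and 8.09 CPM in marrow controls, and was the fall with the smallest p (log2 fold change -4.14 ± 0.74, adjusted p = 0.00107). Plvap was not called, at 52.9, 45.6 and 29.1 CPM in marrow AML, against 64.6, 107 and 115 CPM in marrow controls (log2 fold change -1.17 ± 0.58, adjusted p = 0.125). Nor were Emcn, Cd93, Clec14a, S1pr1, Adgrf5 and Ecscr (adjusted p = 0.0503, 0.197, 0.0611, 0.117, 0.113 and 0.79). The same held for Egfl7 and Mmrn2 among the secreted proteins (adjusted p = 0.243 and 0.0992) and for Arhgef15, Bmx and Ushbp1 inside the cell (adjusted p = 0.209, 0.123 and 0.171). Single libraries decided some of these. Emcn passed without marrow AML 3, marrow control 2 or lung AML 1, Clec14a without lung control 2, S1pr1 and Egfl7 without lung AML 2, Adgrf5 and Bmx without marrow AML 3, Mmrn2 without marrow AML 2, and Arhgef15 and Ushbp1 without marrow AML 1. By the same count of calls, 3 of the 10 genes also known from blood cells rose and 1 fell, and of the 22 others 4 rose and 9 fell, where 20.4% of all genes rose and 23.5% fell.

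**Figure D4:**
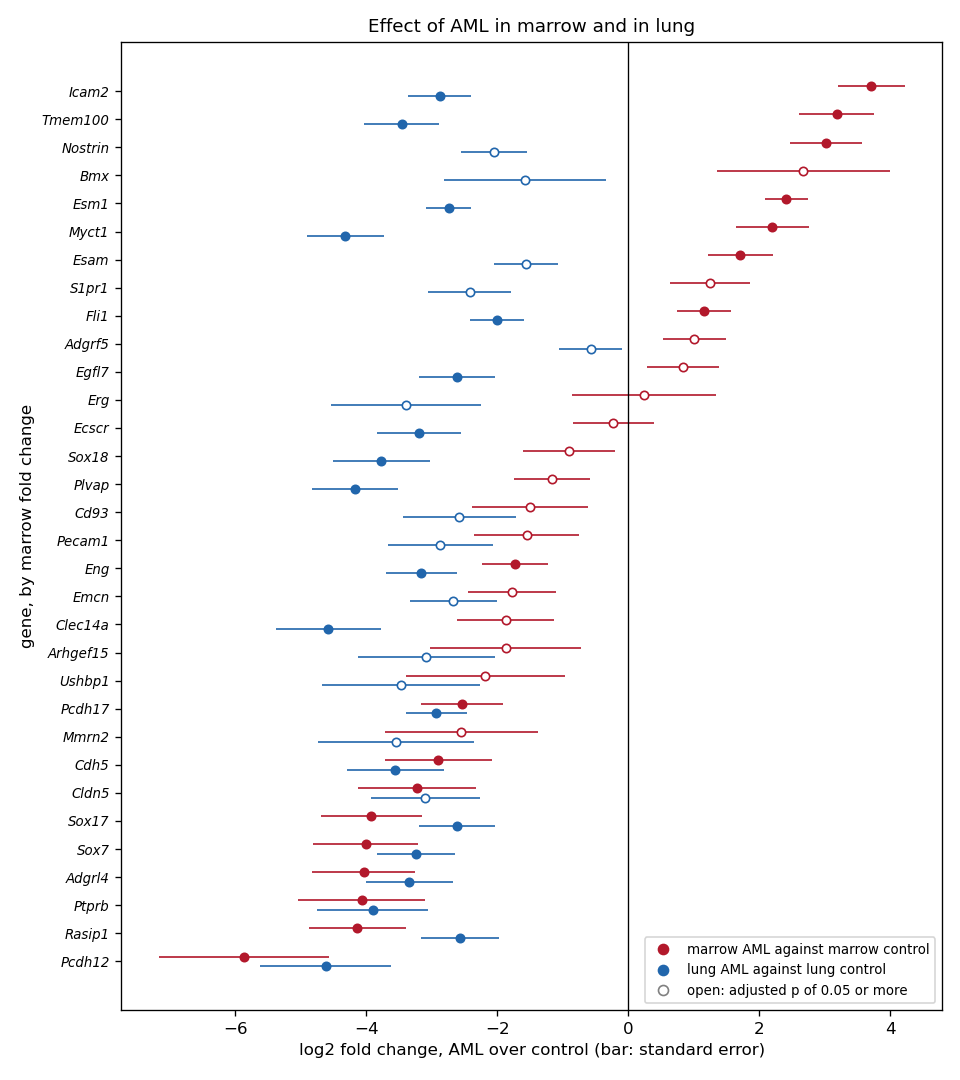
Log2 fold change of AML over control with its standard error for each of the 32 genes in marrow and in lung, filled where the adjusted p was under 0.05, ordered by the marrow value. All 32 lung values lie below 0, and the marrow values run between -5.87 (Pcdh12) and 3.71 (Icam2).

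Set side by side, the calls in the 2 tissues shared 9 genes that fell in both (Cdh5, Pcdh12, Pcdh17, Sox7, Sox17, Eng, Ptprb, Adgrl4 and Rasip1). These are 90.0% of the marrow falls and 47.4% of the lung falls of the set. Over all tested genes 55 fell in both tissues, 1.29% of the marrow falls and 26.1% of the lung falls. These shares start from unlike rates, as 19 of the 32 members fell in the lung whatever their marrow call. Of all 18147 tested genes only 211 fell in the lung and 4263 in the marrow, which caps the share of marrow falls. Another 5 genes rose in marrow AML and fell in lung AML (Icam2, Fli1, Tmem100, Myct1 and Esm1), and Sox18, Clec14a, Plvap, Ecscr and Egfl7 fell in the lung without a call in the marrow. Esam and Nostrin were called in the marrow as higher and Cldn5 as lower, none of them with a call in the lung. The remaining 10 genes were called in neither tissue, Pecam1 and Erg among them.

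Whether the effect of AML differed between the tissues was tested as an interaction, marrow minus lung. It was called for 12 of 32 genes, all with a higher value in marrow, where 14.6% of all tested genes were called higher and 16.1% lower, and 0 members were called lower. The median of the 32 was 1.5 on the log2 scale, against -0.09 over all genes. For Tmem100 the difference was 6.64 ± 0.80 (log2, adjusted p = 0.000263), for Icam2 6.59 ± 0.70 (0.000186), for Myct1 6.52 ± 0.81 (0.000295), and for Esm1 5.15 ± 0.48 (0.000125). These 4 genes were called in opposite directions in the tissues, as was Fli1. Nostrin followed at 5.08 ± 0.75 (adjusted p = 0.000724), Egfl7 at 3.46 ± 0.79 (0.00747), Esam at 3.27 ± 0.70 (0.0052) and Fli1 at 3.16 ± 0.58 (0.00234). S1pr1, Plvap, Ecscr and Sox18 were called with differences of 3.67, 3.0, 2.95 and 2.88. Of these Sox18 kept the call only without marrow AML 1, lung AML 2 or lung control 1 among the 12 libraries left out in turn. Plvap lost it without lung AML 3, and Ecscr without lung AML 3, lung control 2 or marrow control 1.

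For the 9 genes that fell in both tissues the difference did not pass, with values between -1.56 (Rasip1) and 1.43 (Eng). Cdh5 had 0.66 ± 1.07 (log2, adjusted p = 0.686), and its sign turned without lung control 2 (-0.14). The sign also turned for Pcdh17 (0.39, and -0.29 without lung control 2), Ptprb (-0.17, and up to 0.84 without marrow control 2) and Adgrl4 (-0.70, and 0.05 without lung AML 2). Eng had 1.43 ± 0.71 (adjusted p = 0.154), with values above 0 in all 20 alternatives. Pecam1 had 1.32 ± 1.09 (adjusted p = 0.396) and Erg 3.64 ± 1.56 (adjusted p = 0.102, and 0.0105 without marrow AML 3). Pecam1 and Erg were called in neither tissue. The standard errors of the 9 genes other than Eng lay between 0.91 (Rasip1) and 1.5 (Pcdh12), which leaves room for a difference in either direction.

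**Figure D5:**
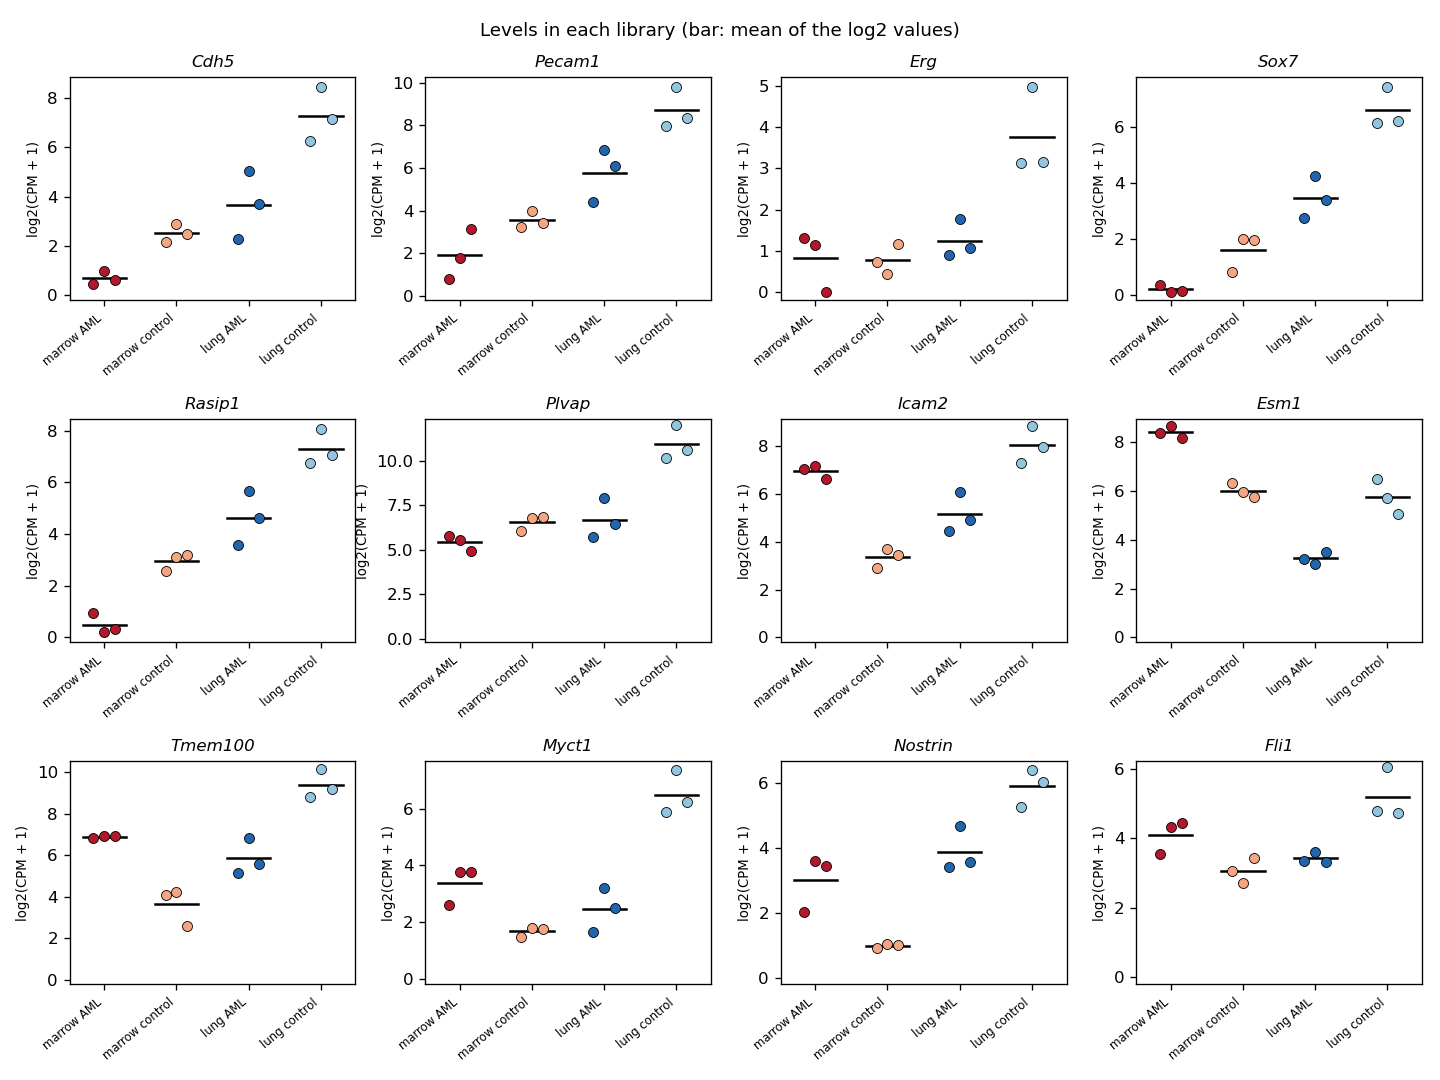
Level of 12 genes in each library as log2(CPM + 1), in marrow AML, marrow control, lung AML and lung control, with the group mean of the log2 values as a bar. Icam2, Esm1, Tmem100, Myct1, Nostrin and Fli1 are higher in marrow AML than in marrow controls and lower in lung AML than in lung controls, and Cdh5, Sox7 and Rasip1 are lower with AML in both tissues.

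The marrow controls and lung controls were compared to place the set in the absence of leukaemia. In marrow controls 29 of 32 genes were lower and 0 higher, where 34.7% of all tested genes were lower and 29.4% higher, with a median log2 fold change of -4.9 against -0.2 over all genes. For 31 of 32 every marrow control lay below every lung control, against 40.5% of all genes. Cdh5 (log2 fold change -5.26 ± 0.81, adjusted p = 0.000181), Pecam1 (-5.48 ± 0.91, 0.000318) and Erg (-4.34 ± 1.2, 0.00817) were lower in marrow, with the library values given above. The smallest p-values were those of Pcdh17 (-6.27 ± 0.56, 4.02e-06), Nostrin (-5.97 ± 0.61, 9.78e-06), Adgrf5 (-5.39 ± 0.57, 1.23e-05) and Icam2 (-4.92 ± 0.53, 1.44e-05). Next stood Tmem100 (-5.78 ± 0.64, 1.62e-05), Myct1 (-5.50 ± 0.63, 2.15e-05), Sox7 (-5.57 ± 0.67, 3.01e-05) and Esam (-4.41 ± 0.55, 4.17e-05). Adgrf5 had 22.3, 35.9 and 14.9 CPM in marrow controls, against 588, 1643 and 842 CPM in lung controls, among which lung epithelium markers were abundant.

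Esm1, Bmx and Mmrn2 were not called between the control groups. Esm1 had 78.5, 60.1 and 52.2 CPM in marrow controls, against 88.3, 50.8 and 32 CPM in lung controls, so that it was the one gene whose control groups overlapped (log2 fold change 0.16 ± 0.32, adjusted p = 0.683). Its sign turned without marrow control 1 (-0.04) or without lung control 3 (-0.15). Mmrn2 (log2 fold change -2.73 ± 1.15, adjusted p = 0.0556) and Bmx (-3.21 ± 1.34, adjusted p = 0.0541) missed the threshold narrowly. Bmx passed without any 1 of the marrow AML libraries, and Mmrn2 without marrow AML 2, marrow AML 3, lung AML 1 or lung AML 2. Markers of other cells differed between the control groups too, with erythroid markers at 14899.8 to 17220.1 CPM in marrow controls and 160.2 to 282 CPM in lung controls, and their part in the gap was not tested.

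The other list of endothelial genes held 28 outside the 32. In lung AML 11 of 28 fell and 0 rose (median log2 fold change -2.35), where 1.16% of all genes fell and 1.17% rose. In marrow AML 7 rose and 9 fell (median 0.05), near the 20.4% and 23.5% of all genes. Aplnr, the apelin receptor, averaged 1.76 ± 0.852 CPM in lung AML and 155 ± 126 CPM in lung controls (SD, n = 3; log2 fold change -6.47 ± 0.87, adjusted p = 0.00529), and Kdr, the main VEGF receptor, 22.6 ± 12 CPM in lung AML and 351 ± 208 CPM in lung controls (-3.96 ± 0.67, adjusted p = 0.015). Gja4, a gap junction connexin of arteries, rose in marrow AML, at 99.9 ± 32.6 CPM in AML and 7.16 ± 2.61 CPM in controls (log2 fold change 3.80 ± 0.45, adjusted p = 9.72e-05), and fell in lung AML (-2.35 ± 0.42, adjusted p = 0.018). Ets1, an ETS factor like Erg and Fli1, also rose in the marrow and fell in the lung (marrow 1.96 ± 0.30, adjusted p = 0.00045, and lung -1.73 ± 0.30, adjusted p = 0.0154). The interaction was called for 11 of 28, all higher in marrow, where 14.6% of all genes were called higher, with the smallest p-values for Gja4 (6.16 ± 0.61, adjusted p = 0.000149), Ets1 (3.69 ± 0.42, 0.000224), Sox13 (4.19 ± 0.57, 0.000466) and Hhex, a homeobox factor (4.16 ± 0.58, 0.000534). Sox13 rose in the marrow (3.20 ± 0.42, adjusted p = 0.000196) and Lmo2, a factor shared by endothelium and blood progenitors, fell there (-2.64 ± 0.45, adjusted p = 0.000884). In marrow controls 23 of the 28 were lower than in lung controls and 3 higher, where 34.7% of all genes were lower and 29.4% higher. Ets1 (-3.54 ± 0.32, adjusted p = 4.10e-06), Sox13 (-4.66 ± 0.45, 6.21e-06) and Gja4 (-3.53 ± 0.44, 4.03e-05) were lower, and Tal1, which also acts in red cell precursors, was higher (4.73 ± 0.60, 4.51e-05). These genes overlap with the 32 in what they mark, so the list is no independent evidence.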

How the data were processed

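The labels name a micro column kit for RNA extraction and low-input library kits. The submitters' processing notes name bcl2fastq, STAR and the mm10 build. Versions, the counter and the annotation are not given in those notes. The authors deposited raw counts, 1 per symbol and library and not normalised, and the file names mark them as unstranded.

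R 4.3.3 and edgeR 4.0.16 were used. Genes were filtered by expression in the groups (minimum count 10 and minimum total 15), libraries were scaled by TMM factors between 0.865 and 1.25, and 1 model of the 4 groups over the 12 libraries (8 residual degrees of freedom) gave robust quasi-likelihood F tests. P-values were adjusted by Benjamini-Hochberg over 18147 genes and called under 0.05. The fit was tested on simulated data, where for lung 108 of 200 genes changed 4-fold were recovered among 17525. CPM are TMM-scaled counts, with the SD over 3 libraries, and folds are fitted log2 values with standard errors. These standard errors are approximate, worked back from the test as the size of the log2 fold change divided by the square root of F. Ratios of few counts have exact 95% intervals, and a count of 0 allows up to 3 counts.

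Alternatives used DESeq2 1.42.0 (its test, or its size factors in edgeR), limma-voom 3.58.1 with quality weights, library totals alone, no filter, 5 CPM in 3 libraries, no robust option, a replicate block, only the 6 libraries of a comparison, and each library left out. Leaving out libraries for the summed levels was added after seeing the data. Genes were placed with GENCODE M21 (GRCm38), and upstream sequences came from RefSeq (GRCm38.p6).

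The members and gene lists were chosen with earlier results of these data known. Library values are given for Cdh5, Pecam1 and Erg and for up to 8 called members a direction and comparison with the smallest p, and values of up to 4 genes a comparison for the list of 28. Others given with library values were chosen after their values were seen.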

Additional observations from a re-analysis of the deposited data

Results flagged for a closer look

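For 12 of the 32 endothelial identity genes the effect of AML differed between marrow and lung by the interaction test of edgeR, and all 12 differences, given as marrow minus lung on the log2 scale, were above 0. Of all tested genes 14.6% were called higher and 16.1% lower by that test. In 5 genes the effects were called in opposite directions: Tmem100, at 6.64, Icam2, at 6.59, Myct1, at 6.52, Esm1, at 5.15, and Fli1, at 3.16. In 2, Nostrin at 5.08 and Esam at 3.27, the rise in the marrow was called and the lung value, below 0, was not. Another 4 fell in the lung with no call in the marrow, namely Egfl7 at 3.46, Plvap at 3.0, Ecscr at 2.95 and Sox18 at 2.88. S1pr1, at 3.67, was called in neither tissue alone. These genes include 4 of the 10 also known from blood cells and 8 of the 22 others, and a difference between these classes was not tested.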

How the results depend on the processing

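Lung counts moved most: 19 members passed by edgeR, 30 by limma-voom, 28 by DESeq2 and 13 without a filter. Of all genes 2.33%, 12.6%, 8.85% and 1.08% passed, in the same order. When 1 library was left out 2 to 23 members passed, the fewest without lung AML 3, lung AML 1 (3) or lung control 2 (6). All 32 lung folds stayed below 0 in all 21 alternatives. In the marrow limma-voom passed 3 members against 17 by edgeR, where 35.0% and 43.8% of all genes passed. There, leaving out 1 library gave 15 to 19. Leaving out 1 library gave 9 to 15 members for the difference of effects (12 with all libraries) and 28 to 31 between the controls (29). With the replicate number as a block 22, 23, 13 and 29 members passed in marrow, lung, difference and controls, of which 6 rose and 16 fell in the marrow. Fli1 in the marrow (adjusted p = 0.0533) and Pcdh12 and Rasip1 in the lung (0.0683 and 0.0513) then had no call, and 6 members gained one in each tissue, Pecam1, Emcn and Cd93 in both. Same-numbered libraries did not deviate together (correlations -0.16 to 0.18, 3 of 18 pairs over 0.1), so the numbers were not taken as pairs. The labels do not say whether marrow and lung libraries of the same number share a mouse, and these correlations cannot settle it.

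The sign turned for Erg in the marrow (limma-voom -0.13, replicate block -0.16, without 1 library -0.29 to 0.85), Ecscr there (0.08 with library totals, without 1 library -0.47 to 0.01) and Bmx there (without 1 library -1.08 to 3.26). Without 1 library it turned for Esm1 between the controls (-0.15 to 0.55) and for 9 genes in the difference, Cdh5 (-0.14 to 1.8), Cldn5 (-0.9 to 1.25), Pcdh17 (-0.29 to 0.74), Cd93 (-0.21 to 2.23), Ptprb (-1.24 to 0.84), Adgrl4 (-1.52 to 0.05), Mmrn2 (-1.53 to 2.45), Arhgef15 (-2.36 to 2.18) and Ushbp1 (-2.48 to 2.53). Cldn5 also turned with library totals (0.35), the 5 CPM filter (0.10), limma-voom (0.40) and the replicate block (0.00), and Ptprb with library totals (0.29) and the 5 CPM filter (0.06). No value with a turned sign was called, and the cause was not tested. The summed level of marrow AML was 1188 CPM with library totals. Without Plvap, Adgrf5 and Tmem100 the sums were 775, 350.2 and 868 CPM in marrow AML, marrow controls and lung AML, and 6280 CPM in lung controls. These sums still hold Esm1 and Icam2, which rose in marrow AML. Leaving out 1 library gave sums of 917 to 1049, 450.2 to 525, 1349 to 2123 and 6557 to 12585 CPM in marrow AML, marrow controls, lung AML and lung controls. Of 2655 single-gene values under alternatives, 2398 kept direction and call, 133 lost a call, 91 gained one and 33 turned sign. The fit of only 6 libraries was not run for the difference.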

Other observations

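Marrow AML 1 differed from the other marrow AML libraries in 3 intracellular genes, chosen after their values were seen. Bmx, a Tec family kinase, had 14.1, 0.687 and 0.0349 CPM in marrow AML 1, 2 and 3, against 0.838, 0.553 and 0.899 CPM in marrow controls. Ushbp1 had 7.12, 0.115 and 0.209 CPM in marrow AML, against 5.96, 8.89 and 16.5 CPM in marrow controls. Arhgef15 had 3.04, 0.115 and 0.0349 CPM in marrow AML, against 1.58, 5.98 and 2.7 CPM in marrow controls. Without that library, Ushbp1 and Arhgef15 passed as lower in marrow AML (log2 fold changes -5.94 and -5.45, adjusted p = 0.00339 and 0.00534 by edgeR). Mmrn2 had 0.647, 4.62 and 0.0698 CPM in marrow AML, against 8.98, 5.83 and 17.1 CPM in marrow controls, and passed when marrow AML 2 was left out (adjusted p = 0.0137, log2 fold change -5.09).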
